A study of Mus musculus with 8 samples.

Results

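The 7 keratin genes described here are the oral mucosa keratins Krt4, Krt13 and Krt76, and the simple epithelial keratins Krt7, Krt8, Krt18 and Krt19. They were picked by name, and all 7 were found among the 23358 genes of the table, which holds 51 keratin genes in all. RNA-seq had been performed on the cervical loop of the mouse incisor, the growth end of this continuously erupting tooth. CLH was the head of the loop, which contains the dental epithelial stem cells, and CLT was the tail with their progenies. Each region came from Med1 cKO mice and from Ctrl mice, with 2 libraries in each of 4 groups and 8 libraries in all. MED1 is a subunit of Mediator, the complex that links enhancer-bound factors to RNA polymerase II. The cKO mice carried Med1 alleles with floxed exons 8 to 10 and Cre recombinase driven by the Krt14 promoter, which is active in basal epithelial cells, so that other cells of the dissected tissue keep Med1. The Ctrl mice were Cre-negative littermates. All mice were 4 weeks old and of C57BL/6 background, 2 litters were used with 6 cervical loop tissues pooled in each group (stated for CLT), and males and females were not distinguished. The labels give the cell type as dental epithelial cells.

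Keratins are the intermediate filament proteins of epithelial cells, and a filament forms from a type II and a type I keratin in equal amounts. KRT8 (type II) and KRT18 (type I) form the pair of simple, single-layered epithelia, where KRT7 (type II) and KRT19 (type I) often accompany them. KRT4 (type II) and KRT13 (type I) form the pair of the suprabasal layers of the non-cornified oral mucosa and oesophagus. KRT76 is a type II keratin of the palate and other cornified oral epithelium. The type II genes, with Krt18, lie in a cluster on mouse chromosome 15, and the other type I genes lie on chromosome 11.

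The sequences before 4 of the genes are shown because the 2 oral keratins among them were higher in cKO CLH than in cKO CLT, and because Krt8 and Krt18, neighbours on chromosome 15, parted in the cKO libraries. They are RefSeq sequences of GRCm38.p6 (the assembly of mm10), read 5′ to 3′ on the strand of the gene. Each stops before the first base of the gene in GENCODE M21, so that the Krt8 stretch has 110 bases, the Krt18 stretch 214 bases and the others 250 bases. Capitals mark matches to any of 5 motifs searched on both strands: the TATA box, spelled TATAAA, the CCAAT box, by those letters, the GC box, spelled GGGCGG, the site of the factor AP-1, spelled TGANTCA, and that of the factor AP-2, spelled GCCNNNGGC.
Krt8, chr15:102004483-102004592, minus strand: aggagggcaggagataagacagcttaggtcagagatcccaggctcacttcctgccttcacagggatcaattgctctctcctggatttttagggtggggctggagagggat
Krt18, chr15:102027966-102028179, plus strand: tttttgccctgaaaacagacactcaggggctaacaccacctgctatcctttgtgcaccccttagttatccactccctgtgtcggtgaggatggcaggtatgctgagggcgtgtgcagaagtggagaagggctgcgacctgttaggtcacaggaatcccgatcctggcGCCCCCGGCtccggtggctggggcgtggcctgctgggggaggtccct
Krt13, chr11:100121567-100121816, minus strand: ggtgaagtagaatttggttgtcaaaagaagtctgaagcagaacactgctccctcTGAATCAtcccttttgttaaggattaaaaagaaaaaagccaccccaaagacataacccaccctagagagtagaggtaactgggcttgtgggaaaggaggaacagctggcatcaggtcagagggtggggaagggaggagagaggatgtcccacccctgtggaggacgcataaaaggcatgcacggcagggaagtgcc
Krt76, chr15:101892921-101893170, minus strand: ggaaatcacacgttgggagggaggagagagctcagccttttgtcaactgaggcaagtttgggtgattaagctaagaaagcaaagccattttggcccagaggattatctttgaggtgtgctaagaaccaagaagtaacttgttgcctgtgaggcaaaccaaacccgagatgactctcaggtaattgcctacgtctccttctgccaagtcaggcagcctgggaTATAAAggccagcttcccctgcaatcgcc
Krt76 held the TATA box letters 29 to 24 bases before its RefSeq start, as did 12.4% of 32851 RefSeq promoters in their 250 bases before the start. Krt13 matched the AP-1 search letters 196 to 190 bases before its start (6.7% of promoters), and Krt18 held AP-2 letters 83 to 75 bases before its start (13.7%). N stood for any base in these searches, and the match of Krt13 had an A at that place. No match was found before Krt8, also not in its full 250 bases. Before Krt7, GC box letters (32.7% of promoters) and AP-2 letters were found, 1 match of each overlapping. Before a second, internal RefSeq start of Krt13, CCAAT letters (33.8% of promoters) and 2 AP-1 matches were found, the latter 183 to 177 and 34 to 28 bases before it. RefSeq entries were matched for 5 of the 7 genes, all but Krt4 and Krt19. Such matches describe the letters and are not evidence that a factor binds.

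The libraries held 22330512 to 28651106 reads on genes. The deposited value is the RPKM, the reads of a gene scaled by its length and by the reads of the library, so that levels of different genes can be compared. Differences were tested with limma on log2(RPKM + 1) over 14148 genes whose RPKM reached 1 in 2 or more of the libraries, with Benjamini-Hochberg adjusted p-values and a threshold of 0.05. All fold changes given as log2 are on this scale, which understates the change of genes with a low RPKM. All 7 keratins were among the genes tested, Krt19 through its CLT libraries alone. With 2 libraries in a group, the spread of a gene is poorly known. The p-values of limma rest on that spread moderated towards a trend shared by all genes tested. An exact permutation test of 2 against 2 cannot go below p = 0.333.

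Several libraries stood apart. The 2 Ctrl CLT libraries differed by over 2-fold (RPKM + 1) in 14.5% of the genes tested, against 0.22% to 0.37% within the other groups. Ctrl CLT 1 had a summed RPKM of 3723 over 10 hair shaft and inner root sheath genes, whereas Ctrl CLT 2 had 16.7, the CLH libraries 10.7 to 15.3, and the cKO CLT libraries 11070 and 12130. Muscle genes (10 genes) showed the same order, with 859 in Ctrl CLT 1, 64.3 in Ctrl CLT 2, while both cKO CLT libraries were higher (2372 and 2559). Melanocyte genes (6 genes) summed to 134 in Ctrl CLT 1, 10.3 in Ctrl CLT 2, 4.27 to 4.58 in CLH, and over 414 in both cKO CLT libraries (414.4 and 414.5). Against the label of dental epithelium, the enamel organ list (12 genes) summed to 12670 to 14450 in CLH, 84680 and 37510 in the tail of Ctrl mice and 58.9 and 53.9 in that of cKO mice. Odontoblast and bone genes (8 genes) were likewise low there, at 380 and 475 against 2383 to 3403 elsewhere. In cKO CLT nearly all of this sum was Col1a1 (376 and 471.5), and every other gene of the list was at most 1.97 (Alpl). Dspp had 0.145 and 0.174 in cKO CLT against 423 to 654 elsewhere. Med1 itself stood at an RPKM of 7.71 and 9.12 (Ctrl CLH), 7.10 and 7.03 (cKO CLH), 4.83 and 8.71 (Ctrl CLT) and 9.15 and 8.96 (cKO CLT). Thus Med1 was not lower in the CLT libraries labelled cKO. The RPKM of the whole gene includes exons outside the floxed part, so it does not check the labels, and the groups are named here by their labels. In such bulk tissue, fewer cells of a type and less RNA per cell cannot be told apart.

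**Figure D1:**
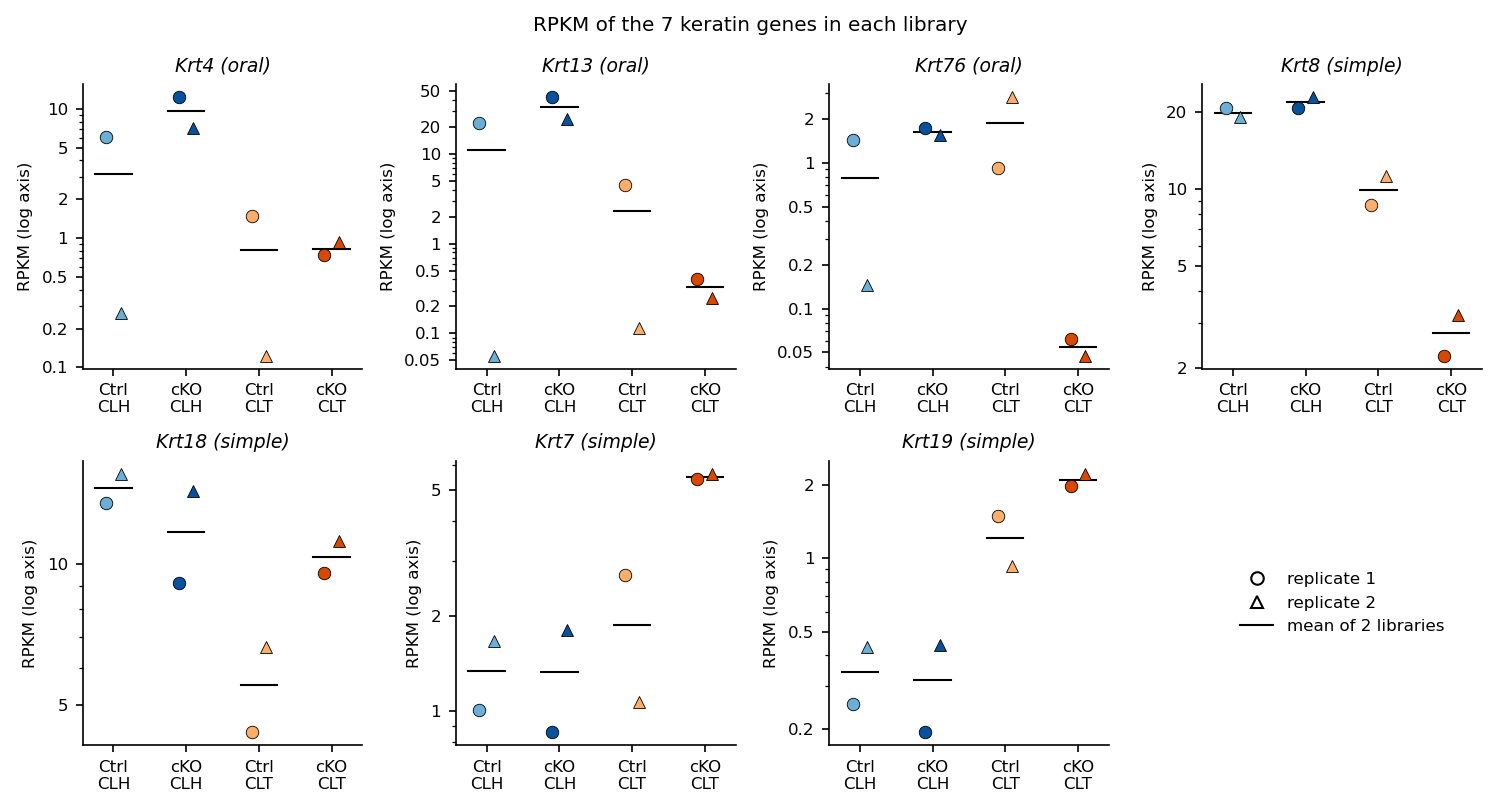
RPKM (log axis, a separate scale in each panel) of the 7 keratins in the 4 groups, where each point is 1 library (circle replicate 1, triangle replicate 2) and each bar the mean of 2 libraries. Krt4, Krt13 and Krt76 were low in Ctrl CLH 2 (0.262, 0.0566 and 0.145). Krt8, Krt13 and Krt76 were lowest on average in cKO CLT, and Krt7 and Krt19 were highest there.

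The oral pair Krt4 and Krt13 was present in 3 of the 4 CLH libraries and fell sharply from CLH to CLT in the cKO mice. Krt13 stood at an RPKM of 21.8 and 0.0566 (Ctrl CLH), 42.5 and 24.4 (cKO CLH), 4.45 and 0.114 (Ctrl CLT) and 0.407 and 0.251 (cKO CLT). The cKO CLH libraries were highest, and Ctrl CLH 2 was the lowest of all 8 libraries. Krt4 stood at an RPKM of 6.07 and 0.262 (Ctrl CLH), 12.3 and 7.11 (cKO CLH), 1.49 and 0.123 (Ctrl CLT) and 0.736 and 0.928 (cKO CLT). Its 4 highest libraries were those of Krt13, in the same order, and its lowest was Ctrl CLT 2.

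In cKO mice, Krt13 was 102-fold lower in CLT than in CLH by mean RPKM (0.329 ± 0.110 against 33.5 ± 12.8, SD, n = 2), with a log2 fold change of -4.65 ± 0.22 (SE) and an adjusted p of 2.73e-07 from limma. Krt4 was 11.7-fold lower (0.832 ± 0.136 against 9.71 ± 3.68, SD, n = 2), with a log2 fold change of -2.51 ± 0.21 and an adjusted p of 9.14e-06 (limma). In Ctrl mice the same regional difference could not be resolved. Its log2 value was -0.996 for Krt13 (95% interval -5.95 to 3.96) and -0.84 for Krt4 (-3.60 to 1.92), since 1 library of each Ctrl group was high and the other low. The difference of the genotype effect between the regions (interaction) was -3.65 ± 2.03 for Krt13 and -1.67 ± 1.15 for Krt4, with adjusted p of 0.232 and 0.323 (limma).

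In CLH, both cKO libraries lay above both Ctrl libraries for Krt13 and Krt4, but the gap within Ctrl CLH was larger than that between the genotypes. The log2 fold change was 2.76 ± 1.49 for Krt13 and 1.80 ± 0.86 for Krt4, with adjusted p of 0.713 and 0.705 (limma). Without Ctrl CLH 2 these values were 0.54 and 0.55, and without Ctrl CLH 1 they were 4.98 and 3.04, so that 1 control library set their size. Krt13 counted 988 reads in Ctrl CLH 1 and 2 in Ctrl CLH 2, a rate ratio of 386 (95% interval of counting error 106.5 to 3189.7), and Krt4 counted 446 and 15 (23.2, 13.9 to 41.8). The Krt13 gap ranked 1 and the Krt4 gap ranked 2 among the 14148 genes tested by the difference between the 2 Ctrl CLH libraries. Taking genes at least 4-fold lower (RPKM + 1) in Ctrl CLH 2 than in each other CLH library, a rule set after the values were seen, 3 genes were found: Krt13, Krt4 and Krt16, a type I keratin of oral and stressed epithelium (0.0713 against 4.25 to 6.81). The same rule found 0 genes for each of the other CLH libraries.

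The genes whose levels were most like those of Krt4 and Krt13 over the 8 libraries were the same 3 for both: Sprr3, a small proline-rich protein of oesophageal and oral epithelium, Krt6b, a type II keratin, and 1700066N21Rik. Pearson's r of log2(RPKM + 1) was 0.97 (Sprr3), 0.97 (Krt6b) and 0.96 (1700066N21Rik) with Krt4 and 0.97, 0.98 and 0.99 with Krt13, and it was 0.98 between Krt4 and Krt13 (8 libraries in 4 groups, 2 of them dominated by 1 library). Sprr3 had 1.93 and 0.0304 in Ctrl CLH, 3.03 and 1.44 in cKO CLH, 0.308 in Ctrl CLT 1, and was listed at 0 in Ctrl CLT 2 and both cKO CLT libraries. Krt6b had 2.62 in Ctrl CLH 1, was listed at 0 in Ctrl CLH 2, and had 3.69 and 2.45 in cKO CLH. In cKO CLT Krt6b had 0.383 and 0.492. All 3 genes were at or near 0 in Ctrl CLH 2, and in cKO CLT Sprr3 and 1700066N21Rik were listed at 0 while Krt13 had 0.407 and 0.251. Krt6b has a close copy in Krt6a, and how shared reads were counted is not given in the sources used here, so its level is uncertain.

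**Figure D2:**
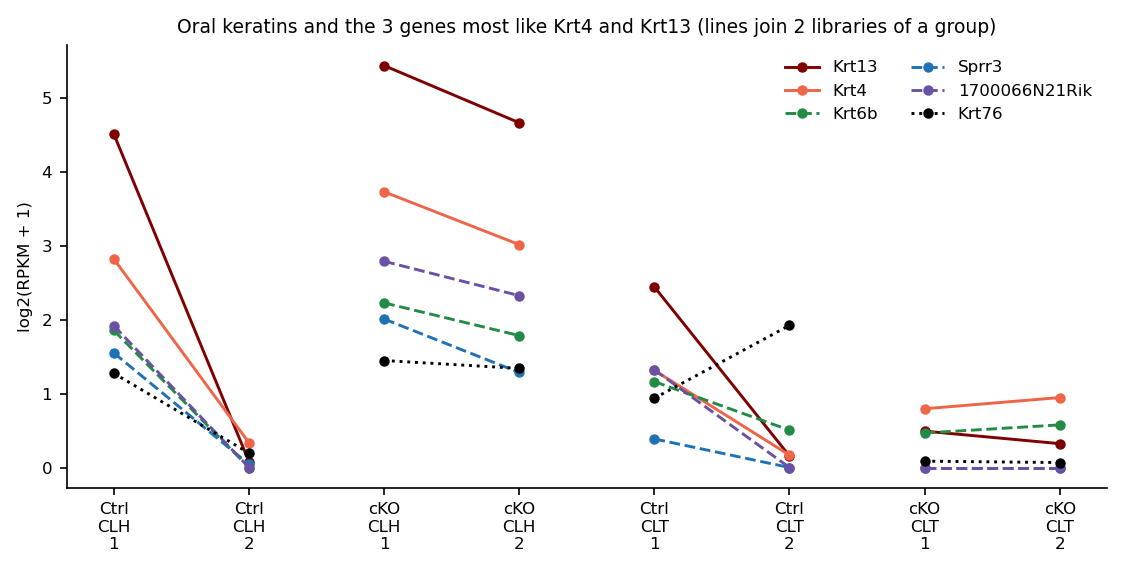
log2(RPKM + 1) of the oral keratins and of the 3 genes most like Krt4 and Krt13 in each of the 8 libraries, with lines joining the 2 libraries of a group. Krt13, Krt4, Krt6b, Sprr3 and 1700066N21Rik dropped together from Ctrl CLH 1 to Ctrl CLH 2 and from Ctrl CLT 1 to Ctrl CLT 2, whereas Krt76 was higher in Ctrl CLT 2.

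The ratio of the 2 partners was close in the 4 libraries with the most Krt13, which were picked out after their values were seen. Krt4 over Krt13 was 0.278 in Ctrl CLH 1, 0.290 and 0.291 in both cKO CLH libraries and 0.335 in Ctrl CLT 1, although Krt13 ranged from 4.45 to 42.5 over these libraries. In the other libraries the ratio was 1.08 to 4.62, with Krt4 above Krt13. Ctrl CLH 2 and Ctrl CLT 2 had 2 and 4 reads of Krt13. In the cKO tail the ratio was 1.81 and 3.70, from 44 and 54 reads of Krt4 against 15 and 9 of Krt13.

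Krt76 parted from the other oral keratins in CLT. It stood at an RPKM of 1.42 and 0.145 (Ctrl CLH), 1.73 and 1.54 (cKO CLH), 0.917 and 2.80 (Ctrl CLT) and 0.0617 and 0.0476 (cKO CLT). The highest library was thus Ctrl CLT 2, in which Krt4 and Krt13 were low, and the groups of CLT did not overlap. In CLT, 234 reads lay on Krt76 in the 2 Ctrl libraries and 7 in the 2 cKO libraries, a rate ratio of 33.1 (95% interval of counting error 15.8 to 83.3), and Ctrl CLT 1 alone, the lower of the 2, gave 16.7 (7.66 to 43.4). The log2 fold change was -1.36 ± 0.39 with an adjusted p of 0.102 (limma), and on a pseudocount of 0.1 it was -3.47 (adjusted p = 0.0778). From CLH to CLT in cKO mice, Krt76 fell by 1.32 ± 0.10 on the log2 scale (adjusted p = 6.09e-06, limma). In CLH its log2 difference of cKO minus Ctrl was 0.66 ± 0.36 (adjusted p = 0.713), and the interaction was -2.02 ± 0.61 (adjusted p = 0.067, limma). Without Ctrl CLH 2, which had 9 reads of Krt76, the CLH difference was 0.12, and without Ctrl CLH 1 it was 1.20. The genes most like Krt76 were Ndufc2, a subunit of respiratory complex I, Pnpla7, a lysophospholipase, and Mypn, a sarcomere protein. Their r was 0.96, 0.95 and 0.94 over 8 libraries, and each had a narrow range of levels (Ndufc2 48.4 to 72.7). GENCODE M21 places the microRNA gene Gm44356 within Krt76 on the opposite strand.

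Of the simple keratins, Krt8 was lower and its partner Krt18 was higher in cKO CLT than in Ctrl CLT by their values, although neither difference passed the threshold, and the proportion of the pair there was unlike that in all the other libraries. Krt8 stood at an RPKM of 20.7 and 19.1 (Ctrl CLH), 20.8 and 22.8 (cKO CLH), 8.63 and 11.3 (Ctrl CLT) and 2.23 and 3.23 (cKO CLT). The groups stood in the order cKO CLH, Ctrl CLH, Ctrl CLT and cKO CLT, and the first 2 differed by about the spread within them (21.8 ± 1.4 and 19.9 ± 1.08, SD, n = 2). Krt18 stood at an RPKM of 13.5 and 15.6 (Ctrl CLH), 9.12 and 14.3 (cKO CLH), 4.37 and 6.66 (Ctrl CLT) and 9.55 and 11.2 (cKO CLT). Ctrl CLT was thus the lowest group for Krt18, and the cKO CLT libraries lay within the range of cKO CLH.

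Krt8 was 3.64-fold lower in cKO CLT than in Ctrl CLT by mean RPKM (2.73 ± 0.705 against 9.95 ± 1.86, SD, n = 2), with a log2 fold change of -1.56 (95% interval -2.23 to -0.89) and an adjusted p of 0.0623, which missed the threshold (limma). In CLH the log2 difference was 0.13 (-0.08 to 0.33, adjusted p = 0.729). The difference between these effects passed the test, with an interaction of -1.68 ± 0.25 on the log2 scale and an adjusted p of 0.0133 (limma). The interaction kept its direction without any 1 library (-1.49 to -1.88), but its adjusted p was 0.0725 without Ctrl CLH 1, 0.0868 without Ctrl CLH 2, 0.0679 without cKO CLH 1, 0.0761 without cKO CLH 2 and 0.066 without cKO CLT 1. The regional difference in cKO mice was a fall of Krt8 by 2.62 ± 0.14 on the log2 scale, or 7.99-fold (adjusted p = 4.93e-07, limma). In Ctrl mice it was -0.94 ± 0.18 with an adjusted p of 0.312. The enamel organ list was lowest in the same 2 cKO CLT libraries (58.9 and 53.9). Its sum was, however, higher in Ctrl CLT (84680 and 37510) than in CLH (12670 to 14450), whereas Krt8 was higher in CLH. Between genotypes in CLT, 11 of its genes had a negative log2 difference and 1 a positive one. The part of this list in the level of Krt8 was not tested. The GENCODE lincRNA gene Gm36026 overlaps Krt8 on the opposite strand and a Krt8 pseudogene is annotated. The strand setting of the counting and how shared reads were counted are not given in the sources used here. Reads from either can thus not be told apart from those of Krt8.

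Krt18 was 1.88-fold higher in cKO CLT than in Ctrl CLT (10.4 ± 1.17 against 5.52 ± 1.62, SD, n = 2), with a log2 fold change of 0.82 (0.14 to 1.51) and an adjusted p of 0.107 (limma). In CLH the cKO and Ctrl libraries overlapped (-0.32 ± 0.22, adjusted p = 0.734), and the interaction was 1.14 ± 0.36 (adjusted p = 0.0733, limma). From CLH to CLT the log2 difference of Krt18 was -1.27 ± 0.24 in Ctrl mice (adjusted p = 0.31) and -0.13 ± 0.18 in cKO mice (adjusted p = 0.526, 95% interval -0.55 to 0.28). The median over all genes tested was -0.13 in Ctrl and -0.18 in cKO for this regional difference. With median-of-ratios scaling, Krt18 in cKO mice was at 0.07.

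The ratio of Krt8 to Krt18 was 1.53 and 1.23 (Ctrl CLH), 2.28 and 1.59 (cKO CLH), 1.98 and 1.69 (Ctrl CLT) and 0.234 and 0.288 (cKO CLT). Krt8 was thus the more abundant partner in 6 libraries, and Krt18 exceeded it 4.28-fold and 3.47-fold in the 2 cKO CLT libraries. The mean log2 ratio changed from 0.87 ± 0.16 in Ctrl CLT to -1.95 ± 0.21 in cKO CLT (SD, n = 2), a difference of -2.82 with the smallest p the exact two-sided permutation test allows (0.333). Both cKO CLT values rested on over 100 reads per gene, from 113 (Krt8 in cKO CLT 1) to 428 (Krt18 in cKO CLT 2).

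**Figure D3:**
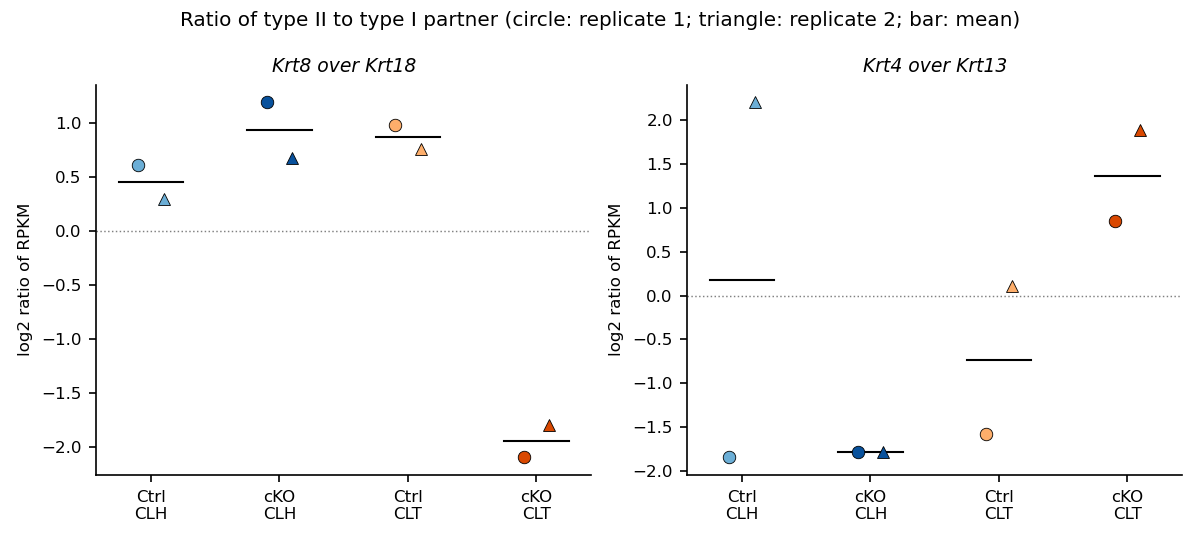
log2 ratio of the RPKM of a type II keratin to that of its type I partner in each library (circle replicate 1, triangle replicate 2, bar mean of 2 libraries). Krt8 over Krt18 lay above 0 in the 6 CLH and Ctrl CLT libraries and near -2 in both cKO CLT libraries (-2.10 and -1.80), and Krt4 over Krt13 was between -1.85 and -1.58 in the 4 libraries with the most Krt13.

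Krt7 and Krt19 were higher in CLT than in CLH of the cKO mice, the opposite direction to Krt8. Krt7 stood at an RPKM of 1.01 and 1.67 (Ctrl CLH), 0.859 and 1.81 (cKO CLH), 2.69 and 1.07 (Ctrl CLT) and 5.42 and 5.64 (cKO CLT). Both cKO CLT libraries lay above all the others, of which Ctrl CLT 1 came next. Krt19 stood at an RPKM of 0.254 and 0.433 (Ctrl CLH), 0.194 and 0.443 (cKO CLH), 1.49 and 0.931 (Ctrl CLT) and 1.97 and 2.21 (cKO CLT), so that its 4 CLT libraries lay above its 4 CLH libraries.

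From CLH to CLT in cKO mice, the log2 fold change was 1.51 ± 0.18 for Krt7 (4.14-fold by mean RPKM, adjusted p = 8.72e-05) and 1.24 ± 0.12 for Krt19 (6.57-fold, adjusted p = 3.01e-05, limma). In Ctrl mice it was 0.26 ± 0.38 and 0.71 ± 0.26, with adjusted p of 0.748 and 0.381. Krt19 entered the test through its CLT libraries alone, so its p-values for a higher CLT are not independent of that filter. Between genotypes in CLT, the log2 difference was 1.24 ± 0.34 for Krt7 (adjusted p = 0.0963) and 0.49 ± 0.22 for Krt19 (adjusted p = 0.188, limma). In CLH it was -0.02 ± 0.25 for Krt7 and -0.03 ± 0.12 for Krt19, with 95% intervals of -0.67 to 0.64 and -0.34 to 0.28. The interaction was 1.26 ± 0.47 for Krt7 and 0.53 ± 0.27 for Krt19, with adjusted p of 0.109 and 0.199. The antisense gene Gm671 of GENCODE overlaps Krt7, so its reads cannot be told apart from those of Krt7. Hair, muscle and melanocyte genes moved with Krt7 and Krt19 across the CLT libraries, lowest in Ctrl CLT 2, intermediate in Ctrl CLT 1 and highest in cKO CLT, as given above, and their part in these levels was not tested.

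Over the 7 keratins, no call was made for cKO minus Ctrl in CLT, where 1.75% of all genes tested were called. At an unadjusted p under 0.05 (limma) there were 4 of 7 (Krt8, Krt76, Krt7 and Krt18), against 5116 of all 14148 genes tested. The model of the recovered reads with voom called 0 of the 7 keratins, and only 18 of all 14148 genes tested. Their CLT groups did not overlap for 5 of the 7, near the background of 72.2%. The median log2 difference was -0.89 for the oral and 0.66 for the simple keratins, beside -0.01 over all genes. In CLH, 0 of 7 were called by limma and by voom, and the background was 0.0%. At an unadjusted p under 0.05 (limma) 0 of 7 passed in CLH, against 1027 of all genes tested. There the groups did not overlap for 4 of 7 (background 38.7%), and the median was 1.80 for the oral and -0.02 for the simple keratins. All 3 oral values were positive, but without Ctrl CLH 2 they were only 0.54 (Krt13), 0.55 (Krt4) and 0.12 (Krt76). For CLT minus CLH in Ctrl mice 0 of 7 were called by limma and by voom, with a background of 0.00707% by limma and 0 genes by voom. There 2 of 7 had an unadjusted p under 0.05 (Krt8 and Krt18, limma), against 1860 of all genes tested. For CLT minus CLH in cKO mice 6 of 7 were called, 4 lower and 2 higher, against a background of 74.0%. Krt19, 1 of the 2 higher, was tested only because of its CLT libraries. For the interaction 1 of 7 was called (Krt8), against 17.6%.

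The calls in CLT depended on which libraries shared the estimate of the spread, and some directions depended on the Ctrl CLT libraries. With all 8 libraries in 1 fit, 4 of the 7 passed (limma): Krt8 (adjusted p = 0.00261), Krt7 (0.028), Krt18 (0.0418) and Krt76 (0.046). The same fit called 6183 of all 14148 genes tested. Leaving out Ctrl CLT 1 or Ctrl CLT 2 left a lone library in the group, so only log2 values of these fits are given. Krt8, Krt76, Krt7 and Krt18 kept their directions either way, whereas Krt13 was at 0.25 without Ctrl CLT 1 and -2.04 without Ctrl CLT 2, and Krt4 at 0.70 and -0.44.

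**Figure D4:**
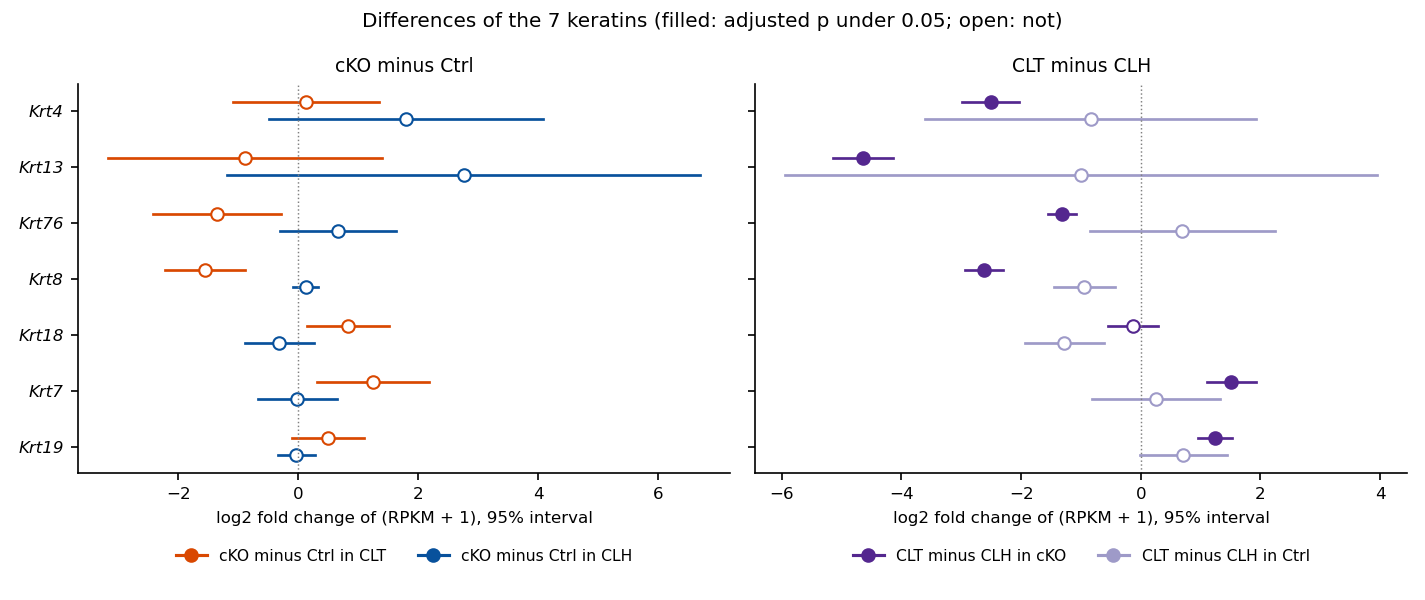
log2 fold changes of (RPKM + 1) with 95% intervals for the 7 keratins, cKO minus Ctrl in CLT and CLH on the left and CLT minus CLH in cKO and Ctrl on the right, filled where the adjusted p was under 0.05. The filled points are the 6 regional differences in cKO mice, and the intervals of Krt13 and Krt4 are wide wherever Ctrl libraries enter.

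Most other keratins rose where Krt13, Krt8, Krt4 and Krt76 fell. Of the 40 other keratin genes tested, 36 were called higher and 2 lower (Krt24 and Krt6b) in CLT than in CLH of cKO mice (limma). Over all 14148 genes tested, 4084 were called higher and 6384 lower. The median of these 40 was 6.20 on the log2 scale and the highest value 11.51 (Krt71, of the inner root sheath), and 4 values were negative. Krt13, Krt8 and Krt4 lay below all 40. For cKO minus Ctrl in CLT, the other keratins had a median of 4.19, 36 positive and 4 negative values and no call, and Krt8 (-1.56), Krt76 (-1.36) and Krt13 (-0.89) lay below the lowest of them (Krt222, -0.86). As a share of the summed RPKM of all 51 keratins, the oral keratins made up 3.94% and 0.0683% (Ctrl CLH), 7.01% and 3.76% (cKO CLH), 0.103% and 0.344% (Ctrl CLT) and 0.00713% and 0.00662% (cKO CLT). The simple keratins made up 3.85% to 5.43% in CLH, 0.259% and 2.26% in the tail of Ctrl mice and 0.113% and 0.12% in that of cKO mice. Their own summed RPKM was much the same in cKO CLT (19.2 and 22.3) as in Ctrl CLT (17.2 and 19.9), while that of all keratins was 16900 and 18542 against 6629 and 883.

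The direct neighbours differed from some of the 7 keratins in direction and not from others. On chromosome 15, Krt76 and Krt4 lie between Krt77 and Krt79, which rose by 8.26 and 7.39 on the log2 scale from CLH to CLT in cKO mice (adjusted p = 9.84e-11 and 3.05e-10). Krt78, the keratin gene before Krt8, rose by 2.93 (adjusted p = 8.82e-08). Krt85, the hair keratin listed after Krt7, rose by 8.29 (adjusted p = 6.57e-11), and Krt7 itself rose too. The listed span of Krt85 (chr15:101431014-101491303) begins 3208 bases after Krt7. That span is far longer than those of the 7 keratins, so the distance is uncertain. On chromosome 11, Krt13 lies between Krt36 (5.27) and Krt15 (4.67, adjusted p = 2.82e-09), and Krt15 also precedes Krt19, which rose as well (limma throughout). Krt8 (chr15:101996711-102004342) and Krt18 (chr15:102028216-102032026) lie 23874 bases apart, and Krt18 had a difference of -0.13 (adjusted p = 0.526, limma) beside the fall of Krt8. Eif4b, the gene after Krt18, fell by 0.23 on the log2 scale from CLH to CLT in cKO mice (adjusted p = 0.0322, limma), with an RPKM of 130 and 129 in cKO CLH and 110 in both cKO CLT libraries. The other loci in mm10, as the table gives them, were chr15:101884351-101892920 (Krt76), chr15:101918535-101924735 (Krt4), chr15:101412403-101427806 (Krt7), chr11:100117596-100121495 (Krt13) and chr11:100140811-100145919 (Krt19).

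**Figure D5:**
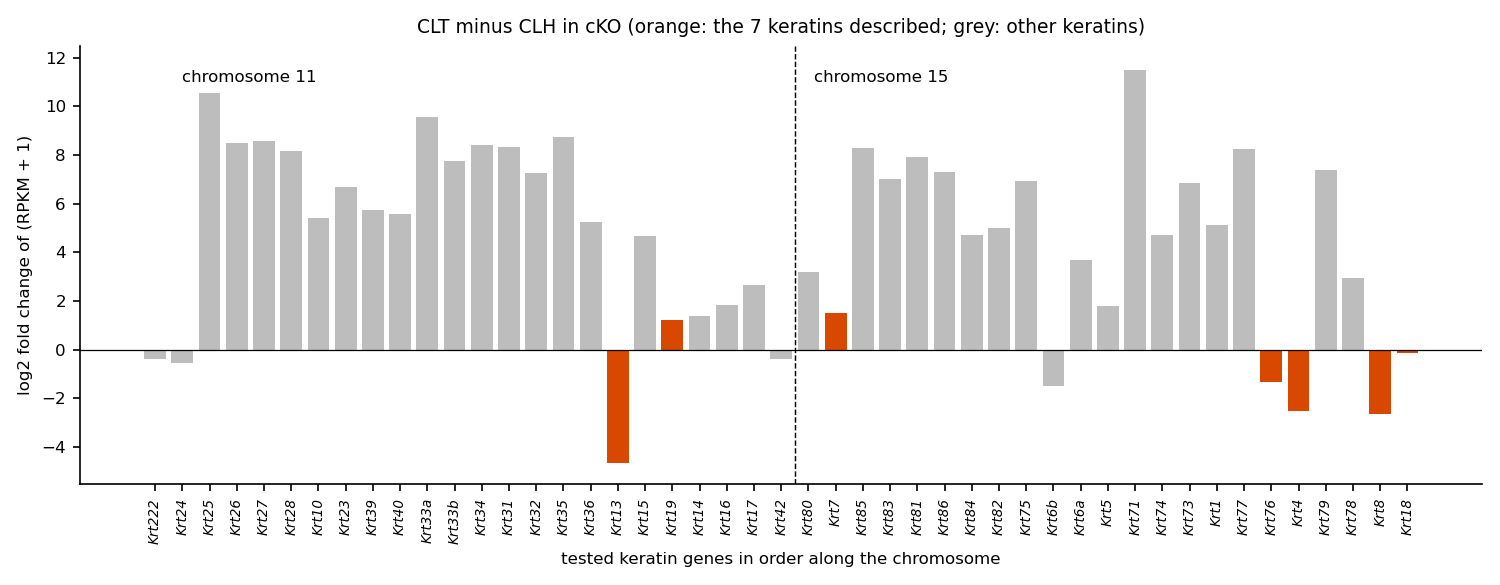
log2 fold change of (RPKM + 1), CLT minus CLH in cKO mice, of all tested keratin genes in their order along chromosomes 11 and 15 (1 bar per gene, 2 libraries per region, no error shown). The orange bars of Krt13, Krt76, Krt4 and Krt8 point down, that of Krt18 is near 0 (-0.13), and those of Krt7 and Krt19 point up, as most grey bars do.

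Companion genes of the same epithelia did not all follow the 7 keratins. Of 18 genes known from oral and oesophageal epithelium, 17 were tested, and in cKO mice 12 were called higher and 5 lower in CLT than in CLH (limma). In this comparison 74.0% of all genes tested were called, 4084 higher and 6384 lower. In the genotype comparison in CLT 1 was called, Pitx1, a transcription factor of the oral ectoderm, which fell by 1.88 ± 0.21 on the log2 scale (adjusted p = 0.0492, limma). The most abundant of them, Sprr1a and Crnn, cornified envelope genes that epidermis and hair follicle can also express, had 1047 and 1219 (Sprr1a) and 418 and 410 (Crnn) in cKO CLT against 406.5 and 132.7 in Ctrl CLT 1 and 0.19 and 0.0924 in Ctrl CLT 2. The list's median in CLT was 2.75, beside -0.89 for the 3 oral keratins. Of 18 simple epithelial genes, 14 were tested, and 13 were called higher and 1 lower in CLT than in CLH of cKO mice, against the same background. None of them was called between genotypes in CLT (limma), where their median was 1.66. Cdh1, E-cadherin, had a log2 difference in CLT of 0.71 ± 0.18 with an adjusted p of 0.0901. In the interaction 3 were called higher (Cdh1, Ehf and Tjp3), whereas Krt8 was lower.

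Of the 12 linkers and desmosomal partners of keratin filaments, 8 were called higher and 3 lower in CLT than in CLH of cKO mice (limma, background 74.0%). Between genotypes in CLT 1 was called, Dst, the linker of keratin filaments to hemidesmosomes, which fell by 1.70 ± 0.17 (adjusted p = 0.0458, limma). Dsp, desmoplakin, had a log2 difference of 2.17 ± 0.58 (adjusted p = 0.0949), and Pkp1, plakophilin, one of 1.79 ± 0.60 (adjusted p = 0.122). Of the periderm genes (7 tested), 6 were called higher and 1 lower in CLT than in CLH of cKO mice, against the same background. None was called between genotypes in CLT (limma).

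Most markers of other cells that carry these keratins were low. Of 9 Merkel cell genes in the table, a sensory cell of skin and oral mucosa that is rich in KRT8 and KRT18, 6 stayed under an RPKM of 1 in all 8 libraries, and the defining factor Atoh1 was at 0 in all. Isl1, which is also an enamel organ gene, had the highest levels (17.5 to 22.0 outside cKO CLT, 0.734 and 0.479 in cKO CLT). Of the 3 Merkel cell genes tested, Isl1 and Sox2 were lower in cKO CLT than in Ctrl CLT by their values. Syp was higher there (4.25 and 4.30 against 1.74 and 0.864). Of 11 salivary gland genes, 10 stayed under an RPKM of 1 throughout and 4 were at 0, and their sum was 0.706 to 2.50. In CLH, where Krt4 and Krt13 varied, the sum of 8 cornified epidermis genes was 11.97 in Ctrl CLH 2 and 15.6 to 21.1 in the other libraries, and that of 7 basal epithelial genes was 598 and 621 to 719. Other lists were also lowest in Ctrl CLH 2, among them odontoblast and bone (2383 against 2918 to 3403), enamel organ (12670 against 13610 to 14450), periderm (196 against 211 to 259.5) and oral and oesophageal epithelium without the 7 keratins (32.8 against 43.8 to 55.8). The mesenchyme (2460 to 2774), leukocyte (399 to 447), endothelial (81.5 to 86.8), erythroid (6.59 to 8.82) and neural and Schwann lists (122 to 133) had these ranges across CLH, with the lowest mesenchyme, leukocyte and erythroid sums also in Ctrl CLH 2. The part of all these cells in the difference between the Ctrl CLH libraries was not tested.

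The genes most like the simple keratins over the 8 libraries differed between the members. Krt8 was followed by Brsk1, a kinase, Pias3, a SUMO ligase, and Cdk5rap3, with r of 0.999, 0.999 and 0.998. Brsk1 had 5.10 to 5.88 in CLH, 2.44 and 3.01 in the tail of Ctrl mice and 0.336 and 0.656 in that of cKO mice. Krt18 was followed by Ccdc3 (0.99), 9430015G10Rik (0.98) and Tbc1d8 (0.98), and Ccdc3 had its lowest levels in Ctrl CLT (2.38 and 3.08), as Krt18 had. Krt7 was followed by the MHC class I gene H2-Q4, the lectin gene Cd209f and the transporter gene Slc16a13 (0.99 each). Krt19 was followed by Htra1, a secreted protease, the metallothionein Mt2, and Ltb4r2, a leukotriene receptor (0.996, 0.992 and 0.992). Among the members, r was 0.90 between Krt7 and Krt19, -0.90 between Krt7 and Krt8, -0.95 between Krt8 and Krt19, and 0.31 between the partners Krt8 and Krt18. These are descriptions over 8 libraries that fall into 4 groups, and no list was common to 2 of the simple keratins.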

How the data were processed

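RNA was sequenced as paired-end 50 base reads (TruSeq v2 libraries) from CLH and CLT of Med1 cKO and Ctrl mice, in biological duplicates. The labels and the study's methods name different RNA kits, and the labels do not say which of the 2 litters a replicate number marks. The submitters' processing notes name FastQC 0.72, Trim Galore 0.4.3.1, STAR 2.6.0b-1, featureCounts 1.6.3, DESeq2 2.11.40.2 and mm10, and the annotation, the strand setting and the total behind the RPKM are not given in the sources used here. The authors deposited 1 table of RPKM values for 23358 genes with gene lengths. Of its names, 26 occurred on 69 rows and were not used by name, and 0 columns with values of a library stayed unused.

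The RPKM times gene length were whole multiples of 1 step per library for 100.0% of the values checked (within 0.05 reads), which gave the reads behind each value. Intervals and floors from them (95%, exact; 3 reads for a count of 0) cover counting error only. log2(RPKM + 1) was tested with limma 3.58.1 in R 4.3.3 (lmFit, eBayes with a variance trend), within the 4 libraries of each comparison, and over all 8 for the interaction, for genes that reached an RPKM of 1 in 2 or more libraries. The fits were also run on simulated counts, drawn with the same spread setting in all groups. Such counts lack the wide gap between the Ctrl CLT libraries, so they do not test the p-values in its presence. DESeq2 was not run, and the recovered reads were modelled with voom as an alternative. Alternatives were other pseudocounts, scalings, filters, moderation, all 8 libraries in 1 fit, a replicate block, and leaving out each library. Ratios and permutation tests used Python 3.11.15 with scipy 1.17.1.

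The members, gene lists and comparisons were chosen with earlier results of these data known. Named genes were the 7 members, the genes of each list past the threshold (at most 4) with its 2 most abundant tested genes, the 3 genes most correlated with each member, and the keratins next to a member. Some genes that this rule names are not reported here. Genes named outside this rule (Krt16, Krt24, Krt222, Krt71, Atoh1, Eif4b, Med1) were chosen after their values were seen. Piezo2, Flg, Hbb-bs and Hbb-bt of the lists were not matched in the table. Lists of other tissues are described by their summed RPKM.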

Additional observations from a re-analysis of the deposited data

Results flagged for a closer look

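Krt8 differed in its genotype effect between the regions by the test of the difference itself. The interaction was -1.68 on the log2 scale (adjusted p = 0.0133, limma), from a cKO minus Ctrl value of -1.56 in CLT and 0.13 in CLH. It was the only call among the 7 keratins, against 17.6% of all genes tested. How this call depended on single libraries is given above. Both cKO CLT libraries (RPKM 2.23 and 3.23) lay below both Ctrl CLT libraries (8.63 and 11.3), while the CLH libraries ranged from 19.1 to 22.8. With 2 libraries per group, samples far from the others within a group could not be tested for.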

How the results depend on the processing

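With all 8 libraries in 1 fit, 4 of the 7 keratins were called for cKO minus Ctrl in CLT and 2 for CLT minus CLH in Ctrl mice, against 0 in the fits of 4 libraries. Of all 14148 genes tested, the same fit called 6183 and 837. A pseudocount of 0.1 gave 2 calls in the interaction in place of 1, with 2339 calls over all genes. The replicate numbers of the titles were not tied to litters by the labels, and deviations of same-numbered libraries correlated at -0.192 (CLT), 0.066 (CLH), 0.195 (Ctrl) and 0.307 (cKO) across genes. A replicate block gave 1 call in CLT (Krt8, adjusted p = 0.039) and 2 in the interaction (Krt8 and Krt18), 0 in CLH and in the Ctrl regions, and 6 for the cKO regions, and it raised the calls over all genes in CLT from 248 to 1744. Over all genes this block called 1448 in the interaction and 11441 between the cKO regions. Leaving out each library in turn left a lone library in its group, assumed to vary like the others. The calls of the 7 keratins from these fits are therefore not counted here.

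Of 511 single log2 values under an alternative, 464 kept their direction and side of the threshold, 30 passed it in addition, 5 no longer passed and 12 changed direction. Median-of-ratios scaling moved Krt18 for CLT minus CLH in cKO to 0.0721 (-0.13 without it), and the cause was not tested. The other changes of direction came from leaving out 1 library. They gave ranges of -2.04 to 0.25 (Krt13) and -0.44 to 0.70 (Krt4) for cKO minus Ctrl in CLT, -0.17 to 0.11 (Krt19) and -0.32 to 0.28 (Krt7) in CLH, -3.21 to 1.22 (Krt13), -2.08 to 0.41 (Krt4) and -0.16 to 0.68 (Krt7) for CLT minus CLH in Ctrl, and -0.43 to 0.17 (Krt18) in cKO. The cause of these was not tested. Over all genes, calls in CLT ranged from 11 to 9838. Depth limits Krt13, Krt4 and Krt76 in Ctrl CLH 2 (2, 15 and 9 reads) and Krt76 in cKO CLT (4 and 3 reads).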
